A study of Mus musculus with 2 samples.

Results

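The 6 GATA factors (Gata1 to Gata6) and their 2 FOG cofactors (Zfpm1, also called Fog1, and Zfpm2, also called Fog2) were examined in RNA of the embryonic mouse heart. They were taken as whole gene families, by symbol in the annotation, with no threshold on their values. They are 8 of the 43346 mouse genes in the deposited tables and have 24 annotated transcripts there. The study holds 2 libraries of 1 group: whole hearts of B6NCrl mouse embryos at 12.5 days, with males and females pooled, no treatment and no altered allele named. The labels call the libraries biological replicates 1 and 2; they come from separate biosamples but cite the same donor entry, and the number of embryos pooled is not given. The input of each library was 10 ng of RNA, with molecules above 200 nt kept. With 1 group there is no contrast between conditions, so levels within a library and the spread between the 2 libraries are described, without p-values. The SD over 2 libraries is an imprecise estimate of that spread.

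GATA factors are transcription factors that bind DNA words with the core GATA through paired zinc fingers. In broad terms Gata1, Gata2 and Gata3 act in blood and lymphoid lineages and Gata4, Gata5 and Gata6 in heart, gut and gonad, though Gata2 and Gata3 are also used outside the blood. FOG proteins do not carry GATA-type fingers: they attach to the first zinc finger of a GATA factor and can bring in corepressors such as CtBP and the NuRD complex. In the mouse heart, Gata4 acts with Nkx2-5, Tbx5 and other factors in muscle and endocardium, and Zfpm2 is required for normal heart and coronary development.

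All 8 genes were detected, meaning at least 1 TPM in both libraries, beside 57.5% of the 21461 nuclear protein-coding genes by the same rule. TPM is a level per unit of gene length, scaled to the same total in each library, so it can be compared between genes. The order ran from Gata4 at 159 ± 5.73 TPM to Gata1 at 4.41 ± 1.2 TPM (mean ± SD, n = 2, as throughout), a 37.6 ± 11.5-fold span within a library. The sum of Gata4, Gata5 and Gata6 was 238 TPM in replicate 1 and 247 TPM in replicate 2, and that of Gata1, Gata2 and Gata3 was 21.2 and 20.5 TPM. The first sum was therefore 11.2 and 12.1 times the second, and Gata4, Gata5 and Gata6 made up 92.1 ± 0.374% of all GATA transcripts. In whole-tissue RNA, fewer cells of a type and less RNA per cell cannot be told apart, so none of these levels is a level per cell.

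**Figure D1:**
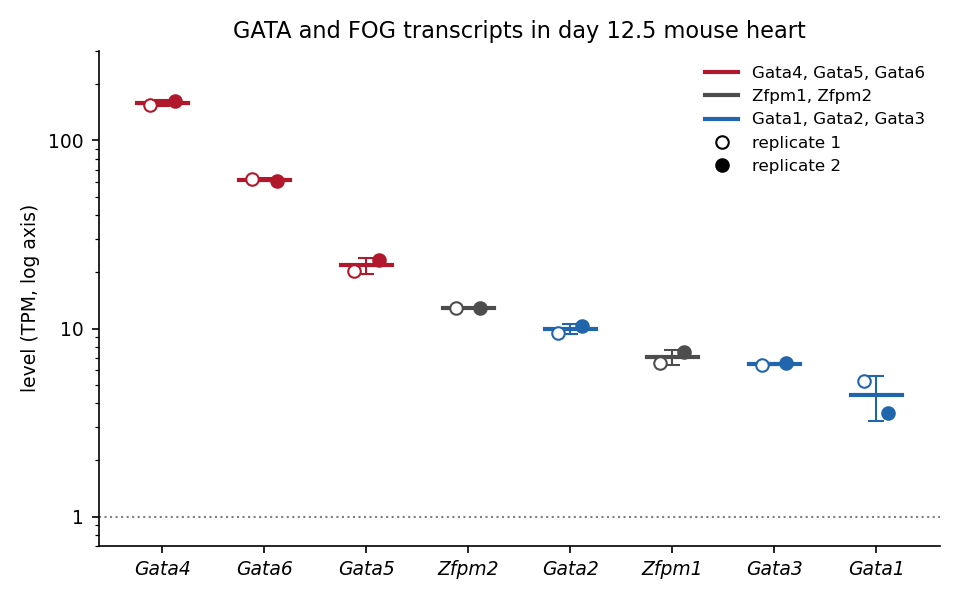
Level of the 8 genes in TPM on a log axis, ordered by mean. Open circles are replicate 1, filled circles replicate 2, bars the mean and whiskers the SD (n = 2); the dotted line is the detection level of 1 TPM. Gata4 stands highest at 159 TPM, and the open and filled circles of Gata1, at 5.26 and 3.56 TPM, lie furthest apart on this axis.

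The zinc finger code of the GATA genes is shown because it is what the family shares and where their reads could be confused. For each gene, the GENCODE M21 transcript with the highest share of its TPM was searched for code with the cysteine spacing of a GATA finger. The search found exactly 2 fingers in each of the 6 GATA genes. The first finger, the one that FOG proteins contact, reads as follows in 5 of them, 75 bases each, 5′ to 3′, with the codons of the 4 cysteines that hold the zinc in capitals.
Gata1 first finger: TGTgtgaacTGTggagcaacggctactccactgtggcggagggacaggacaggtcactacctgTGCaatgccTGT
Gata2 first finger: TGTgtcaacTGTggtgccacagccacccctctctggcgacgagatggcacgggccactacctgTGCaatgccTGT
Gata3 first finger: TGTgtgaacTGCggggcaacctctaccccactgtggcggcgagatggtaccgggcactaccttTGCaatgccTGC
Gata4 first finger: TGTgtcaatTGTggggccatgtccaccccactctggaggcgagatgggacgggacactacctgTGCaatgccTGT
Gata5 first finger: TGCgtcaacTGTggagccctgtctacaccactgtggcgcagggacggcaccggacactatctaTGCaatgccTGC

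The most alike pair in this stretch was Gata2 and Gata4, with the same base at 65 of 75 positions (86.7%). Over the 9 pairs that cross from Gata1, Gata2 or Gata3 to Gata4, Gata5 or Gata6, the share of identical bases ran from 72% to 86.7%. It ran from 78.7% to 81.3% within the first trio and from 73.3% to 77.3% within the second. In base identity, then, the first finger did not separate the trios. The second finger, which makes the main contact with the GATA word, is shown for the highest and the lowest member.
Gata4 second finger: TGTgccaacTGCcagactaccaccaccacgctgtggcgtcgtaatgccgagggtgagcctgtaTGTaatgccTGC
Gata1 second finger: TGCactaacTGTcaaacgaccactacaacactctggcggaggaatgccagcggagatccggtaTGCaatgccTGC

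These last stretches matched at 55 of 75 bases (73.3%). For the second finger, identity was 69.3% to 81.3% within Gata4, Gata5 and Gata6, 72% to 80% within Gata1, Gata2 and Gata3, and 68% to 77.3% between the trios. Runs of identical bases were sought between the same transcripts at full length, 1 per gene, with those of Zfpm1 and Zfpm2 chosen likewise. The longest run shared by any pair of the 8 was 26 bases, between Gata4 and Gata5. Zfpm1 and Zfpm2 shared at most 20 bases. Other transcripts of these genes, and stretches alike but for mismatches, were not searched. The files' effective lengths are shorter than their lengths by a median of 99 bases, more than any such run. The deposited spread of the read allocation (posterior SD) was 0 reads for 7 of the 8 genes. For Gata5 it was 1.3 reads in replicate 1 and 1.8 in replicate 2. Gata5 also shares 258 exonic bases with its antisense gene Gata5os, described further on. The source of the Gata5 spread was not tested.

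Gata4 is a central cardiac regulator of muscle and endocardial genes. It lies on chr14:63198922-63271692, minus strand (GRCm38, as all gene positions here; ENSMUSG00000021944.11 in the files). It measured 155 TPM from 9779 reads in replicate 1 and 163 TPM from 9314 reads in replicate 2. Both values lie above every other member, and 96.2% of nuclear protein-coding genes were at or below its mean (rank 826). Gata6, its close relative in heart and endoderm, lies on chr18:11052064-11085635, plus strand (ENSMUSG00000005836.8). It measured 62.6 and 60.9 TPM, from 4575 and 4024 reads, which placed it at rank 2282. Gata4 was 2.58 ± 0.143 times Gata6, 2.48-fold in replicate 1 and 2.68-fold in replicate 2, so the libraries agree on the direction and nearly on the size.

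Gata5, known for its expression in endocardium, is the low member of the cardiac trio. It lies on chr2:180325133-180334699, minus strand (ENSMUSG00000015627.5), and measured 20.2 TPM from 1515 reads and 23.1 TPM from 1568 reads. Gata6 was 2.87 ± 0.329 times Gata5 and Gata4 was 7.36 ± 0.438 times Gata5. Within the trio Gata4 held 65.6 ± 0.578% of the TPM, Gata6 25.5 ± 1.19% and Gata5 8.92 ± 0.609%. These differences between members were many times their spread between the libraries. The Gata4 TPM, and so these ratios and shares, includes short upstream models described further on. They held 20.6% of Gata4 TPM from 4.28% of its reads. By expected counts not divided by length, the log2 ratio of Gata4 over Gata6 was 1.15, against 1.36 by TPM.

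Zfpm2, the FOG cofactor associated with heart development, is the longest of the genes. It spans 449.6 kb on chr15:40655035-41104592, plus strand (ENSMUSG00000022306.8). It measured 12.89 and 12.85 TPM, from 1485 and 1338 reads, the closest agreement between libraries of any member. Zfpm1, the FOG cofactor of red cell and megakaryocyte development, lies on chr8:122282141-122337251, plus strand (ENSMUSG00000049577.10). It measured 6.57 and 7.49 TPM, from 499 and 514 reads. Zfpm2 was 1.96 times Zfpm1 in replicate 1 and 1.72 times in replicate 2 (1.84 ± 0.174). Both libraries put Zfpm2 above Zfpm1. Together the cofactors came to 7.56 ± 0.0613 transcripts per 100 transcripts of the 6 GATA genes, a sum of which Gata4 is the largest part; Zfpm2 itself stood above Gata1, Gata2 and Gata3.

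The cofactors were also set against the trio each is best known for, a ratio chosen after the values were seen. Zfpm2 amounted to 5.43 and 5.2 transcripts per 100 of Gata4, Gata5 and Gata6. Zfpm1 amounted to 31 and 36.6 transcripts per 100 of Gata1, Gata2 and Gata3, and to 44.5 and 53.8 per 100 of Gata1 and Gata2 alone. The cofactor with the higher level thus had the lower ratio to its trio in both libraries.

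Gata2, a factor of blood progenitors, mast cells and endothelium, led the other trio. It lies on chr6:88193891-88207032, plus strand (ENSMUSG00000015053.10), and measured 9.5 and 10.4 TPM from 704 and 696 reads. Gata3, a factor of T cells, sympathetic neurons and several epithelia, lies on chr2:9857078-9890034, minus strand (ENSMUSG00000015619.10), and measured 6.42 and 6.54 TPM from 473 and 435 reads. Gata1, the factor of red cells, megakaryocytes and mast cells, lies on chrX:7959260-7978071, minus strand (ENSMUSG00000031162.10). It measured 5.26 TPM from 210 reads in replicate 1 and 3.56 TPM from 129 reads in replicate 2. Gata2 was 1.53 ± 0.0749 times Gata3. It was 1.81 times Gata1 in replicate 1 and 2.91 times in replicate 2, a ratio (2.36 ± 0.783) whose size the libraries do not share. Gata2 held 47.8 ± 4.11% of its trio, Gata3 31.1 ± 1.16% and Gata1 21.1 ± 5.26%.

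Each of the 7 neighbouring pairs in the order of means kept its order in both libraries, and the 2 values of the higher gene lay above the 2 of the lower. The gap between Zfpm1 and Gata3 was only 6.57 against 6.54 TPM at its nearest, and their deposited intervals overlapped. On the deposited posterior mean TPM the order of that pair turned: Gata3 stood at 7.5 and 7.87 and Zfpm1 at 7.06 and 7.96. Zfpm1 and Gata3 are therefore not separated by these data. Zfpm2 exceeded Gata2 by 1.3 ± 0.0832-fold and Gata2 exceeded Zfpm1 by 1.42 ± 0.0435-fold, both larger than their spread.

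Promoter windows were read where the libraries bear on which annotated start is used, and to show the GATA word itself in genes that encode its binders. RefSeq windows (GRCm38.p6, 250 bases before to 50 bases after a start) matched 5 of the 8 genes and gave 6 windows, Gata2 having a pair; Gata4, Gata6 and Zfpm2 had no entry. They are printed 5′ to 3′ on the gene's own strand for Gata1, Gata2 and Gata3, with each GATA core, on either strand (TATC read on the opposite strand), in capitals.
Gata1, chrX:7967861-7968160, minus strand: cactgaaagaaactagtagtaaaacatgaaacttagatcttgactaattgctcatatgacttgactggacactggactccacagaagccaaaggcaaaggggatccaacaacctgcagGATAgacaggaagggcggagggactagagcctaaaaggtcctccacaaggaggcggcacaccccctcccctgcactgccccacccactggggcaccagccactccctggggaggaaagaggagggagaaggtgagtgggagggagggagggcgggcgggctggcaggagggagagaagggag
Gata2 upstream start, chr6:88193641-88193940, plus strand: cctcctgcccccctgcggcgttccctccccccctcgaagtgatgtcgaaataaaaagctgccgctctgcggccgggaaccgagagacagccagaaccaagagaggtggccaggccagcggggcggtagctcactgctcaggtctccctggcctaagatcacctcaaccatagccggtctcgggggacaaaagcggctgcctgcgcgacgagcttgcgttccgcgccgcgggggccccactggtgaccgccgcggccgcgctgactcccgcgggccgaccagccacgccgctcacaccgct
Gata2 downstream start, chr6:88198414-88198713, plus strand: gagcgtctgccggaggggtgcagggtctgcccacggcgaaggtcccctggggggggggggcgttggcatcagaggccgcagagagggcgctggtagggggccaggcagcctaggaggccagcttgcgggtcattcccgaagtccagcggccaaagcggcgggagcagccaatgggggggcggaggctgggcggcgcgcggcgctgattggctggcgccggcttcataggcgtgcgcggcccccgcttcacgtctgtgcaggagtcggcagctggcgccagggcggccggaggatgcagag
Gata3, chr2:9878551-9878850, minus strand: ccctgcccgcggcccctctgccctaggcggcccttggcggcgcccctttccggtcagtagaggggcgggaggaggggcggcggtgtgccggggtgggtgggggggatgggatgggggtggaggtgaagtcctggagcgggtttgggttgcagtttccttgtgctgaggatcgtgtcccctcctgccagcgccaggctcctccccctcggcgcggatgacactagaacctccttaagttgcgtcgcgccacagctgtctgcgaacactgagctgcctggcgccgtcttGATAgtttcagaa

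The Gata1 window held 1 core, 132 bases before the start, and the Gata3 window held 1 core, at base 38 counted from 1 at the start. Neither Gata2 window held one, nor did those of Gata5 and Zfpm1. So 2 of the 6 windows held a core, beside 57.9% of the 32851 RefSeq windows of the same length. A longer word that contains the core was also searched on either strand: AGATAA and the 3 forms of it with a first base of T, a last base of G, or both. It was in 1 of the 6 windows (Gata3) and in 29.8% of all. Among the gene lists described further on, the share of windows with that word ran from 18.2% (cardiac GATA partners, 2 of 11, and T cell genes, 2 of 11) to 70% (mast cell and progenitor genes, 7 of 10). It was 6 of 9 windows for red cell genes and 4 of 8 for megakaryocyte genes, but 6 of 19 for erythroid GATA partners. It was 5 of 16 for cardiac GATA targets, 4 of 9 for endothelial genes and 2 of 4 for epicardial genes. In the remaining lists it was 3 of 5 for GATA zinc finger relatives, 2 of 5 for sympathetic genes and 5 of 13 for liver and gut genes. Heart muscle markers had 4 of 11 and FOG corepressors 3 of 16. A gene can have several windows or none: the 9 red cell windows cover 8 of 14 genes and the 19 erythroid ones 12 of 14. A match of letters is not a bound site, and a window without one says nothing of sites elsewhere.

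Several members have more than 1 annotated start, and the deposited transcript table divides their reads between them. Where transcripts share exons this division is an estimate. Gata1 was assigned mostly to ENSMUST00000033502.9, whose start lies in the Gata1 window above. It held 91.5 ± 0.242% of Gata1 TPM and 97.4 ± 0.547% of Gata1 reads. A start 10.2 kb upstream (ENSMUST00000125418.1) was given 3 and 3.86 reads on a model of 676 bases, which is 4.18% and 8.71% of Gata1 TPM. With so few reads the difference between these shares cannot be resolved.

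Gata2 was assigned to ENSMUST00000015197.7 at 93.6% of its TPM in replicate 1 and 100% in replicate 2. The upstream start (ENSMUST00000170089.3), 4443 bp away in GENCODE M21, received 43.63 reads in replicate 1 and 0 in replicate 2. The posterior SD of that allocation was 27.71 and 16.91 reads, and the deposited posterior mean shares were 7.81% and 2.73%. The difference in assigned reads between the libraries is thus of the order of the uncertainty of the division. The RefSeq starts whose windows are printed above lie 4773 bp apart. The GENCODE M21 start of the leading transcript is 330 bases upstream of the RefSeq one, and the authors' model, from GENCODE M4, is 330 bases shorter than that of M21.

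Gata3 reads went entirely to ENSMUST00000102976.3, and its other models, 5 in number, were listed at 0 in both libraries. Posterior means gave the leading model 83% and 80.2%, and the rest to models without an assigned read. Gata4 was divided over 3 groups of starts. The leading start combines ENSMUST00000118022.3 (49.6 ± 2.44% of Gata4 TPM) and ENSMUST00000067417.5 (25 ± 2.8%), whose first bases are 23 apart. The reads of ENSMUST00000118022.3 had a posterior SD of 244 and 283, so the pair is better read as a sum: 74.5 ± 0.363% of TPM and 91.5 ± 0.379% of Gata4 reads.

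A group of Gata4 starts 25.9 to 26.4 kb upstream of the leading one was also given reads in both libraries. Its 3 models, led by ENSMUST00000132122.1, held 418 reads in replicate 1 and 400 in replicate 2, or 4.28 ± 0.0148% of Gata4 reads. On the TPM scale, which divides by length, this became 20.6 ± 0.0917%: the leading model of this group is annotated at only 653 bases. The libraries gave nearly the same share on either scale, but the scales differ far beyond the SD, so no single share is given for it. A downstream start (ENSMUST00000121312.1) held 5.18% and 4.54% of Gata4 TPM. Zfpm1 was assigned to ENSMUST00000054052.10 at 96.9 ± 0.11% of TPM, and Gata5, Gata6 and Zfpm2 have 1 transcript each in the files.

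**Figure D2:**
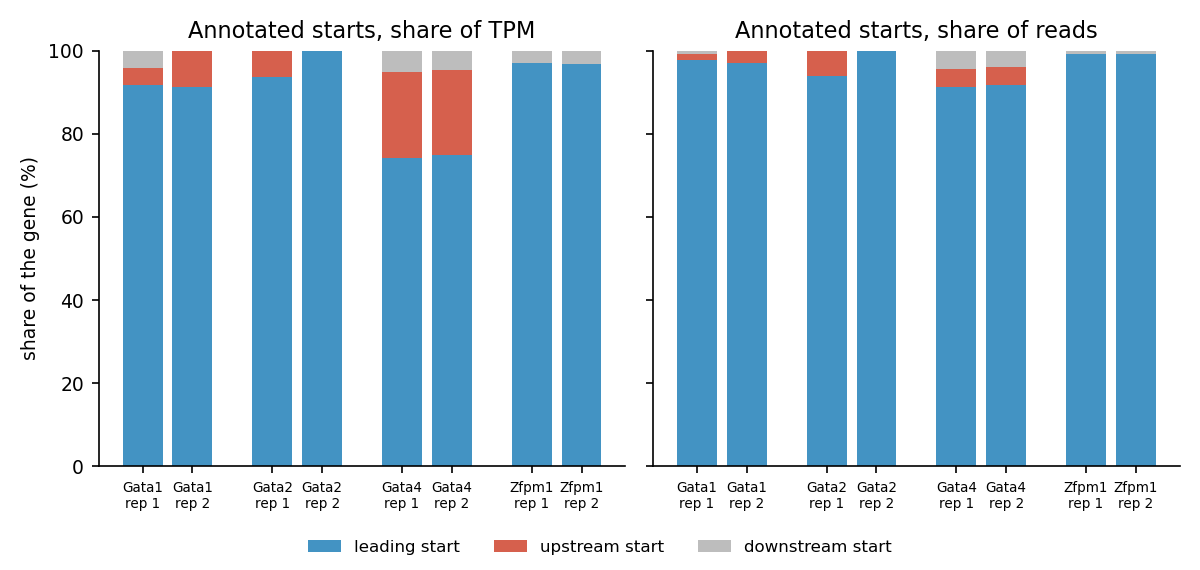
Share of each gene held by its annotated starts, in percent, as a share of TPM (left) and of reads (right), with 1 stacked bar per library for the 4 members that had reads on more than 1 start. Blue is the leading start, red starts upstream of it and grey starts downstream; the Gata4 upstream start is 20.6% by TPM and 4.28% by reads in bars of nearly equal height, and the Gata2 upstream start appears in replicate 1 alone.

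Genes that overlap the members matter because the strand of the libraries is not given, and reads of overlapping exons may not be told apart. The posterior SD of the gene reads was 0 in both libraries for Gata3, Gata6, Zfpm1 and Zfpm2. Gata5os, antisense to Gata5 with 258 shared exonic bases, had 36.55 and 53.08 reads (1.28 ± 0.417 TPM), few beside those of Gata5. The gene 1010001N08Rik, on the opposite strand to Gata6 with 93 shared exonic bases, had 502 and 444 reads (15.8 ± 0.488 TPM). Gm13256, antisense to Gata3 with 155 shared bases, had 1 read in each library. The other overlapping genes of Gata3 were 9230102O04Rik, on the same strand with 77 shared bases and 2.28 and 7.47 reads, and 4930412O13Rik, with no shared exonic base and 1.47 ± 0.0636 TPM. Zfpm1 lies inside the span of the long readthrough gene Gm20388 without sharing an exonic base in GENCODE M21. Gm20388 was given 0 reads in replicate 1 and 394.85 in replicate 2. Beyond the posterior SD of 0 reads for Zfpm1, whether Gm20388 moved any Zfpm1 reads was not tested. The genes Gm49525, Gm49526 and Gm49524, which overlap Zfpm2 in GENCODE M21, share no exonic base with it and are not listed in the files.

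Between the libraries the largest difference of a member was that of Gata1. On the scale of log2 of TPM + 0.1, replicate 2 minus replicate 1, the differences were 0.07 for Gata4, -0.04 for Gata6, 0.19 for Gata5, 0.00 for Zfpm2, 0.19 for Zfpm1, 0.13 for Gata2, 0.03 for Gata3 and -0.55 for Gata1. The median of the 8 was 0.05, beside 0.02 over the 15154 genes with a mean of at least 20 reads. No member passed a 1.5-fold difference, which 4.71% of the 15154 genes did. With 8 members a count of 0 is near that share and sets them apart in no way. Gata1 was the 1 member to pass a difference of 25%, as 12.9% of those genes did, 5.91% in its direction.

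Gata1 was 1.46-fold higher in replicate 1 by TPM. Its expected counts per total of gene reads (CPM) were 6.27 and 4.21, a ratio of 1.49 with an exact binomial 95% interval of 1.19 to 1.87 that covers counting error only. Among the 1457 genes whose mean read count was within 1.5 times that of Gata1, the central 95% of differences ran from -0.58 to 0.57. In either direction, 5.77% were at least as large as that of Gata1. The difference was thus larger than counting error but inside the central range of genes with like counts. Exceeding counting error was not particular to Gata1. The same interval left out a ratio of 1 for Gata4 (0.962, 0.935 to 0.989) and Gata5 (0.885, 0.824 to 0.95), both higher in replicate 2. The next largest difference was that of Gata5, 1.14-fold higher in replicate 2. Of the 3265 genes with like counts, 7.17% differed as much or more. The same share was 22.5% for Gata4, 23.8% for Zfpm1 and 34.4% for Gata2. It was 56.2% for Gata6, 85.2% for Gata3 and 96.2% for Zfpm2. The deposited TPM intervals of Gata1 and Gata5 did not overlap between the libraries. They were 4.58 to 6.34 and 3.02 to 4.5 for Gata1, and 18.7 to 20.7 and 21.4 to 23.6 for Gata5.

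**Figure D3:**
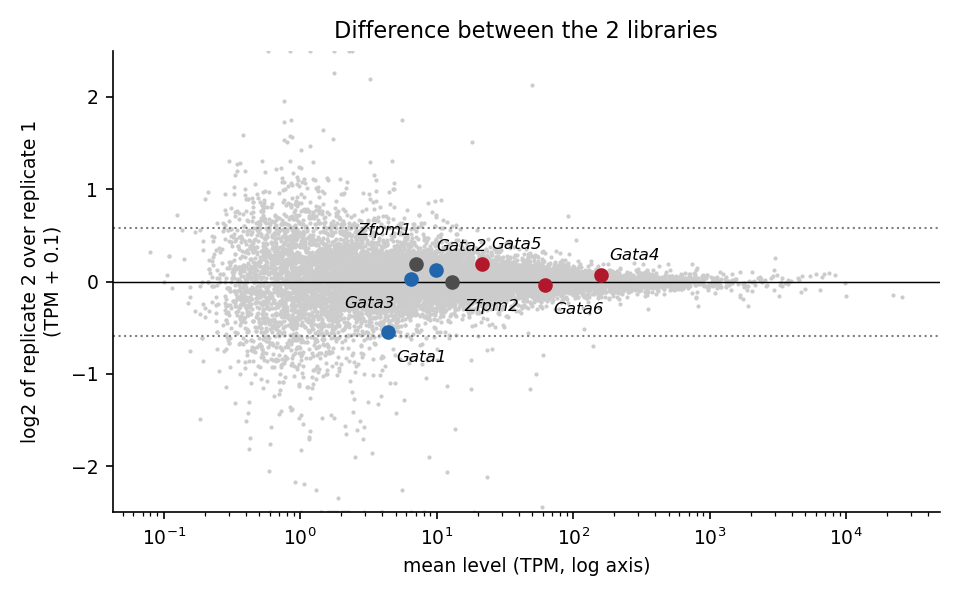
Difference between the libraries (log2 of replicate 2 over replicate 1, TPM + 0.1) against mean level in TPM (log axis) for the 15154 genes with a mean of at least 20 reads in grey and the 8 members in colour. Genes beyond 2.5 either way are drawn at the edge, and the dotted lines mark 1.5-fold; all 8 members lie between those lines, with Gata1 at -0.55 the nearest to one.

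The surroundings of these factors were read from gene lists, starting with the tissue check. All 8 heart muscle markers were detected, at a median of 3770 TPM. The cardiac partners of GATA factors, 14 of 14 detected at a median of 28.6 TPM, were led by the homeobox factor Nkx2-5 (168 ± 5.9 TPM), the T-box factor Tbx20 (90.1 ± 3.75 TPM) and the SRF coactivator Myocd (59.4 ± 1.06 TPM). Gata4 stood just below Nkx2-5 in both libraries (155 against 164 TPM and 163 against 172 TPM). All 15 cardiac genes listed as GATA targets were detected, at a median of 895 TPM, led by the sarcomere genes Actc1 and Myh7 and the natriuretic peptide gene Nppa. None of the 14 partners or 15 targets passed 1.5-fold between the libraries.

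The list of FOG corepressors holds CtBP and NuRD genes and also Tacc3 (127 ± 7.07 TPM), which is neither. Its genes were all detected, 16 of 16 at a median of 76.5 TPM. They were led by the histone-binding NuRD subunits Rbbp7 (343 ± 8.27 TPM) and Rbbp4 (278 ± 1.36 TPM) and by Ctbp1 (169 ± 3.01 TPM). The lowest, Mbd2 at 6.06 ± 0.0354 TPM and Gatad2b, lay below both Zfpm1 and Zfpm2. None of the 16 passed 1.5-fold. Genes with GATA-type fingers outside the family were also detected, 4 of 5. Gatad1 stood at 55.9 ± 0.735 TPM, Trps1 at 6.35 ± 0.332 TPM, and the NuRD subunits Gatad2a at 34.7 ± 1.48 TPM and Gatad2b at 6.78 ± 0.778 TPM. None of these 4 differed by 1.5-fold between the libraries; Zglp1, at 0.7 and 0.51 TPM, had too few reads for that comparison.

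Lists of other cell types are given because Gata1, Gata2 and Gata3 can come from blood, vessels or nerves in a whole heart. Endothelial and endocardial genes were all detected, 13 of 13 at a median of 40.2 TPM, led by Plvap (155 ± 9.16 TPM), Cd34 (72.5 ± 2.79 TPM) and Pecam1 (57.5 ± 2.73 TPM), and none passed 1.5-fold. Of 8 mast cell and progenitor genes 5 were detected, led by Cd34 and by Mecom (33.6 ± 2.82 TPM) and Kit (9.29 ± 0.311 TPM). Fcer1a and Ms4a2, defining mast cell markers, had 0 reads in both libraries, where a count of 0 allows up to 0.0896 and 0.0978 CPM. In the same list Hdc stood at 2.5 and 2.74 TPM from 136 reads in each library. Cpa3 had 14 and 9 reads and was below 1 TPM. Hdc and Cpa3 are given by a choice made after their values were seen. Mecom and Cd34 are also endothelial genes, so the list is not specific to blood.

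T cell genes are given because Gata3 also acts in T cells. Of 8 such genes 2 were detected, Tcf7 at 5.2 ± 0.0707 TPM and Lck at 3.13 ± 0.354 TPM, and the list median was 0.34 TPM. Cd3e had 0 reads in both libraries. Of 9 sympathetic and neural crest genes 2 were detected, Hand2 (15.8 ± 0.863 TPM) and Isl1 (4.46 ± 0.375 TPM), which the heart itself also expresses. Th, the rate-limiting enzyme of catecholamine synthesis, had 0.5 and 0.81 TPM from only 19 and 30 reads. Of the 3 genes of that list with enough reads, it was the 1 past 1.5-fold, higher in replicate 2. Of all tested genes, 2.36% passed in that direction. The 7 epicardial genes were all detected, at a median of 28.8 TPM, led by Upk3b, Krt19 and Tcf21, and none passed 1.5-fold. Which of these cells held the Gata3 transcripts was not tested.

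Genes of the red cell lineage were lower in replicate 2, as Gata1 was. All 13 red cell genes found were detected, at a median of 116 TPM, led by Hbb-y, Hba-a1 and Hba-x, the embryonic and adult globins of primitive and definitive red cells. Their sum was 48421 TPM in replicate 1 and 43470 TPM in replicate 2. All 13 were lower in replicate 2, as were 42.9% of all tested genes, but by little: their median difference was -0.15 and none passed 1.5-fold. Of 14 erythroid partners of GATA factors 13 were detected, led by Tcf3 (71.8 ± 1.9 TPM), Ldb1 (70.3 ± 0.728 TPM) and Tcf12 (37.7 ± 2.15 TPM). In that list 11 of 14 were lower in replicate 2, with a median of -0.11 and none past 1.5-fold.

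A few erythroid partners are given because their differences were nearest to that of Gata1, a choice made after their values were seen. Klf1 stood at 14.7 and 9.82 TPM (1.49-fold) and Gfi1b at 4.61 and 3.19 TPM (1.43-fold). Myb stood at 1.2 and 0.86 TPM (1.35-fold), and Tal1 at 6.71 and 5.55 TPM. In the same list Lmo2 (18.3 and 20.2 TPM), Tcf12 (36.1 and 39.2 TPM) and Tcf3 (70.5 and 73.2 TPM) were higher in replicate 2. Zfpm1 (6.57 and 7.49 TPM) and Gata2 (9.5 and 10.4 TPM) had the opposite sign.

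Megakaryocyte genes, a lineage in which Gata1 and Zfpm1 are also known to act, were higher in replicate 2. All 11 were detected, at a median of 6.81 TPM, with Pf4, Fli1 and Itga2b the highest. Their sum was 125.1 and 158.5 TPM. The 4 that passed 1.5-fold upward in replicate 2, which 2.36% of all tested genes did, were the platelet genes Ppbp (11 and 16.9 TPM), Gp1bb (5.35 and 8.27 TPM), Gp5 (2.2 and 3.88 TPM) and Gp1ba (1.17 and 1.82 TPM). Every gene of this list except Fli1 was higher in replicate 2, with a median difference of 0.48.

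Genes of proteins secreted by the liver were also lower in replicate 2. They belong to a list of 12 liver and gut endoderm genes, of which 8 were detected. Their sum was 246 TPM in replicate 1 and 72.5 TPM in replicate 2, 3.39-fold apart. Of the 8 tested, 7 were past 1.5-fold lower in replicate 2, which 2.36% of all genes were: Afp (99.3 and 18.2 TPM), Trf, Apoa2, Apoa1, Alb (9.23 and 1.85 TPM), Ttr and Ahsg. The endoderm factor Sox17, at 5.83 and 4.24 TPM, was the 1 tested gene that did not pass. Foxa1, Foxa2 and Hnf4a were under 1 TPM in both libraries, with too few reads for that comparison, and Cdx2 had 0 reads in both. The fetal liver is also a site of red cell formation; the part of red cell, megakaryocyte or liver RNA in the Gata1 difference was not tested.

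**Figure D4:**
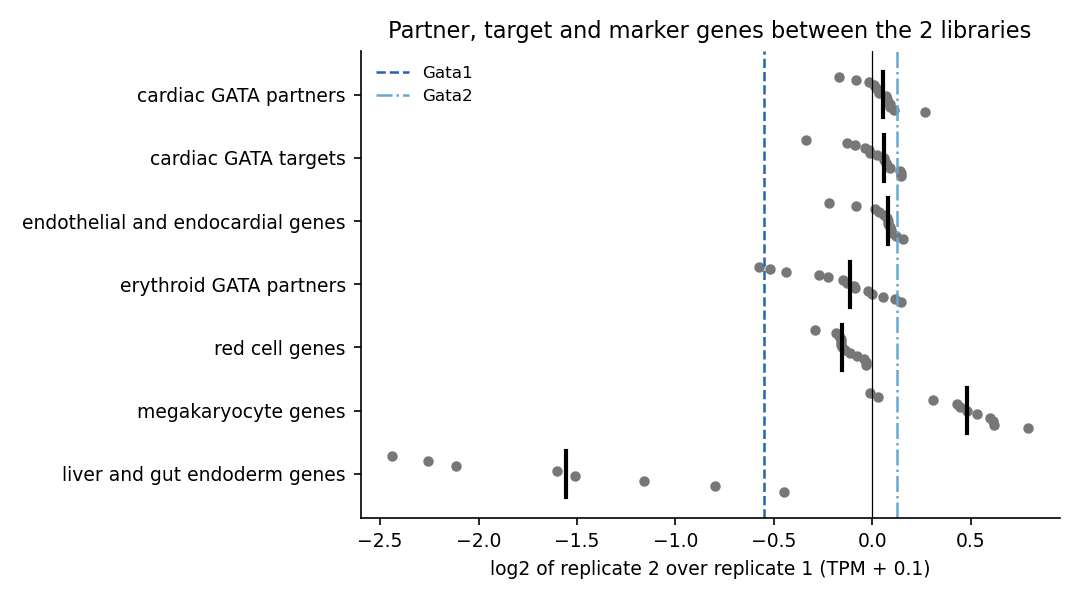
Difference between the libraries (log2 of replicate 2 over replicate 1, TPM + 0.1) for the genes of 7 lists; each point is a gene with a mean of at least 20 reads, black bars are list medians, the dashed line is Gata1 and the dash-dotted line Gata2. Red cell genes sit just left of 0 (median -0.15), megakaryocyte genes right of it (median 0.48) and liver and gut genes far left (median -1.56), with Gata1 at -0.55.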

How the data were processed

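Total RNA of 2 libraries was measured. Extraction used a mirVana kit and a SMARTer low-input kit manual is cited, per the labels' protocols. Alignment was to mm10 and quantification on GENCODE M4, per the file headers and accompanying notes. Strand, ribosomal depletion, aligner and quantifier were not given in these sources. The deposited expected counts estimate reads per gene or transcript and need not be whole. The deposited TPM values are per effective length, scaled to one total over all rows, spike-ins included. The deposited FPKM values are per length and per library size. The deposited percent values give a transcript's share of its gene. Gene reads totalled 33480066 and 30665239; rows naming no mouse gene held 3.66% and 3.71% of all reads and were left out of tests.

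Of 43346 gene IDs 42462 matched GENCODE M21 (GRCm38), which gave names and positions. The member rule uses no measured value, but the members and the 14 lists were chosen with earlier results of these data known. Ahsp matched no row. Levels are TPM; differences between libraries are log2(TPM + 0.1), which understates low genes, over genes with a mean of at least 20 expected counts. With 1 library on each side no p-value was computed. Genes with like counts were those within 1.5 times a member's mean expected count. The exact binomial interval (95%) and the limit for a count of 0 (3 reads) cover counting error only, since PCR copies are not independent molecules. Named were all members, their transcripts at 5% or more of the gene in either library, overlapping genes, and from each list the 3 highest detected, those past 1.5-fold and defining markers at 0; others are said to be chosen after their values were seen. Of the steps, only the fold call between libraries was tested on simulated counts, with genes changed 2-fold. Alternatives were other units, posterior means, pseudocounts, thresholds, scalings and each library alone. Expected counts were rounded for the TMM factors of edgeR 4.0.16 and the size factors of DESeq2 1.42.0 (R 4.3.3). The other tools were biopython 1.88, matplotlib 3.10.9, pandas 2.3.3, numpy 2.4.6 and scipy 1.17.1 under Python 3.11.15.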

Additional observations from a re-analysis of the deposited data

How the results depend on the processing

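Over 37 alternatives to the 6 ratios none reversed a direction and 31 stayed within the spread (SD) between libraries. Those 31 include every alternative that leaves out 1 library, which cannot move a mean of 2 values by more than their SD. For these, only the direction could have failed. In the order of levels, Zfpm1 and Gata3 changed places with posterior mean TPM. Log2 ratios moved as follows. The sum of Gata4, Gata5 and Gata6 over that of Gata1, Gata2 and Gata3 was 3.54, and 3.43 with posterior mean TPM; it was 4.08 with Gata3 left out, an alternative chosen after seeing the data. Expected counts not divided by length moved Zfpm2 over Zfpm1 from 0.87 to 1.48, Gata4 over Gata6 from 1.36 to 1.15 and Gata2 over Gata1 from 1.18 to 2.09. The leading models measure 4974 bases for Zfpm2, 3390 for Zfpm1, 3241 for Gata2 and 1902 for Gata1. That of Gata4 (3374 bases) is longer than that of Gata6 (3194 bases), but the short upstream models of Gata4 held 20.6% of its TPM from 4.28% of its reads. Posterior mean TPM moved Gata2 over Gata3 from 0.61 to 0.33. Gata3 went from 6.42 and 6.54 TPM to 7.5 and 7.87, and Gata2 from 9.5 and 10.4 to 9.31 and 10.1. As given above, posterior means placed part of Gata3 on models without an assigned read. The cause was not tested further. Leaving out each library in turn gave 3.49 to 3.59 for the sums, 0.77 to 0.96 for Zfpm2 over Zfpm1, 1.31 to 1.42 for Gata4 over Gata6, 1.39 to 1.63 for Gata6 over Gata5, 0.84 to 1.52 for Gata2 over Gata1 and 0.56 to 0.66 for Gata2 over Gata3. The order of the 8 genes kept 6 ranks with posterior means and all 8 in FPKM, after rescaling to nuclear protein-coding genes and in either library alone. The levels themselves depend on the scaling: of 32 alternatives to them, 22 stayed within the SD, including every one that leaves out 1 library. Rescaling to nuclear protein-coding genes raised Gata4 from 159 to 199 TPM and Gata6 from 61.7 to 77.3 TPM. Gata1 went from 4.41 to 5.52 TPM, within its SD. No member passed 1.5-fold under any scaling, and Gata1 was between 1.43-fold (posterior mean) and 1.49-fold (DESeq2 size factors) higher in replicate 1; 1 member passed a difference of 25%. Over all genes 714 passed 1.5-fold, 203 with a pseudocount of 1 TPM, 183 at 2-fold, 1950 at a difference of 25% and 5150 of 43346 without the count filter. The Gata4 upstream start was 20.6% by TPM and 4.28% by reads, also chosen after seeing the data. No paired analysis was possible because there is 1 group. Depth limits Gata1 (129 reads in replicate 2) and the minor starts most.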
